A study of Mus musculus with 11 samples.

Results

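At P1, outer hair cells (OHCs) in which no Neurod6 transcript was counted and that carried Calb2 formed a class of 262 cells, of 14043 P1 cells and 30634 cells in all. They are called later OHCs here. Members were chosen by their own values: the deposited natural log (ln) value had to be at least 1.5 for Myo6, at least 2.0 for Ccer2, at least 2.0 for Calb2 and under 3.5 for Oc90, with Fgf8, Tbx2 and Neurod6 at 0. Myo6 and Ccer2 mark hair cells (HCs), Fgf8 and Tbx2 inner hair cells (IHCs), Oc90 the roof of the cochlear duct, and Neurod6 and Calb2 split the OHCs. These 7 genes enter no test, and Calb2 is given only to describe the border of the class and the spread within it. Because the cells were picked by these values, a p-value given here is no independent check that the class exists. It also does not measure only how evenly a gene's difference recurs across libraries, because its error rests mostly on a variance shared with genes of similar level.

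At E14, E16, P1 and P7, epithelium of the mouse cochlea was profiled by droplet single-cell RNA sequencing (10x Chromium, 3′ ends), to follow how cochlear cell types arise. All animals were wild type CD1 mice. Each library was a separate collection from pooled animals of either sex, and the 4 P1 libraries are the replicates of every comparison. The comparison classes came from those same P1 libraries: 323 Neurod6-positive OHCs (the same gate with Neurod6 above 0 and any Calb2), 181 Fgf8-positive HCs (Myo6 and Ccer2 as above, Oc90 under 3.5, Fgf8 above 0), 183 Neurod6-negative OHCs below the Calb2 threshold, and 12546 non-hair cells with Myo6 under 1.5 and Ccer2 under 2.0. One profile was made per class and library, as the mean over cells of each gene's unique molecular identifiers (UMIs) scaled to counts per 1000000 UMIs of the cell (CPM). Since the libraries pool animals, the spread between them is one between collections, not between single mice.

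OHCs amplify sound by changing length, and they sit in rows beside the single row of IHCs, which pass the signal to the auditory nerve. Around birth in the mouse, HCs mature from the base of the cochlea to its apex, so that cells of one age differ in stage. A maturing OHC turns down the factors that committed it, such as Atoh1, completes its hair bundle with the transduction apparatus, gathers calcium buffers such as oncomodulin, and acquires the nicotinic receptors through which efferent nerve fibres later act on it. Prestin, the motor of mature OHCs, comes up after birth.

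Replicates 1 to 4 held 91, 29, 30 and 112 later OHCs, which were 46.0%, 19.5%, 14.4% and 27.3% of the cells of the hair cell gate (Myo6 and Ccer2 over their thresholds, Oc90 under its own). Neurod6-positive OHCs took 18.7%, 38.9%, 46.6% and 32.0%. Replicate 1 therefore held more later than Neurod6-positive OHCs, and the other 3 held fewer. The class profiles rested on 889835, 204711, 232110 and 545580 UMIs, with a median of 9662, 6968, 7935 and 5022 UMIs per later OHC. Median depth over all libraries was 6830.5 UMIs in later OHCs, 7138 in Neurod6-positive OHCs, 7586 in Fgf8-positive HCs and 4842.5 in non-hair cells.

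**Figure D1:**
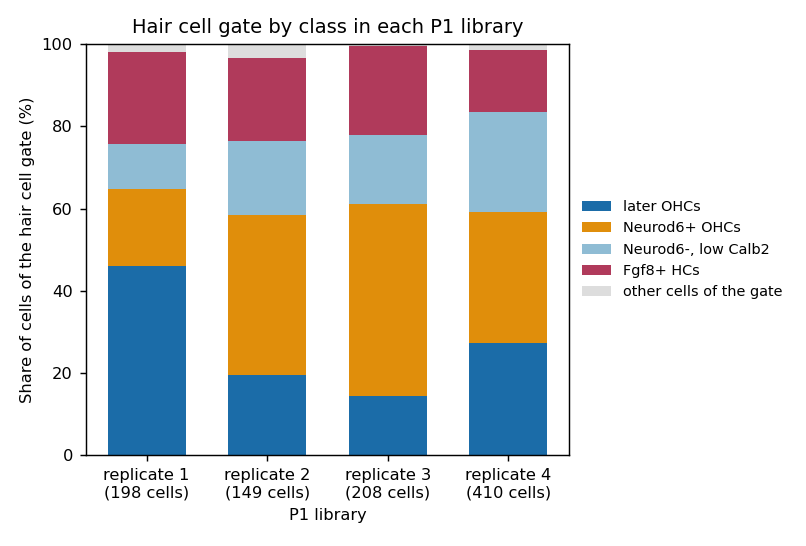
Share (%) of the cells of the hair cell gate that fell in each class (y axis), in each of the 4 P1 libraries (x axis, with the number of cells of the gate). Later OHCs made up 14.4% to 46.0% of a library's hair cell gate, with the highest share in replicate 1.

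Some libraries stood apart in quality. Scrublet called 3.60%, 1.88%, 1.27% and 0.143% of the cells of replicates 1 to 4 as doublets, and replicate 4 is treated as not screened at so low a share. Of the later OHCs 9 were among the calls (7 in replicate 1 and 2 in replicate 2). More than 3000 genes were found in 80 later OHCs (49, 9, 18 and 4 in replicates 1 to 4), and results are also given without such cells. The methods of the study name this gene number together with a limit on UMIs as a filter on cells, and can be read as asking for either or for both. More than 15000 UMIs were found in 1 later OHC. A barcode shared with another library was found in 1 later OHC, against 84 of 13959 different barcodes at P1. Summed over 13 measured markers of Kölliker's organ, interdental and sulcus cells, later OHCs reached 1445, 434, 284 and 422 CPM, Neurod6-positive OHCs 1228, 516, 203 and 452 CPM and non-hair cells 15637 to 24430 CPM. The sum was highest in replicate 1 in both OHC classes. For 17 supporting cell markers the sums were 116 to 295 CPM in later OHCs, 185 to 340 CPM in Neurod6-positive OHCs and 1144 to 1842 CPM in non-hair cells. None of the 13 or 17 markers was at 0 in later OHCs. Mitochondrial transcripts took 1.60% ± 0.394 of UMIs in later OHCs, 1.25% ± 0.30 in Neurod6-positive OHCs, 1.60% ± 0.395 in Fgf8-positive HCs and 0.558% ± 0.164 in non-hair cells (SD, n = 4 libraries); the part of such RNA in the differences below was not tested.

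The label as outer hair cells was checked on IHC markers outside the gate. Atp2a3, Fam19a3 and Dnajc5b had no UMI in any later OHC, which allows up to 1.60 CPM, and Shtn1, Cabp2 and Slc17a8 averaged 0.608, 0.296 and 0.796 CPM. Otof and Kcnj13 of the same list were present, at 496 and 76.9 CPM. At least 1 UMI of Shtn1, Atp2a3 or Cabp2 was found in 4 of 262 later OHCs, each of them in replicate 1, against 155 of 181 Fgf8-positive HCs. Slc26a5, which encodes prestin, was near 0 at 0.821 CPM, as were the transduction channel genes Tmc1 and Tmc2 at 4.78 and 2.53 CPM.

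Calb2 set the border of the class. The 93 cells just inside (ln value 2.0 to under 2.5) held a median of 6 Calb2 UMIs (range 2 to 15), and the 74 cells just outside (1.5 to under 2.0) a median of 3 (range 1 to 7). Strip2 was at 124 CPM just inside and 128 CPM just outside, Calca at 157 and 109.7 CPM, Veph1 at 91.1 and 73.6 CPM, Ocm at 96.2 and 65.7 CPM and Atoh1 at 449.9 and 538.5 CPM (means over cells of all libraries). Over the pooled cells Calca, Veph1 and Ocm had higher and Atoh1 lower means just inside. Each of the 5 gaps was smaller than the range over libraries just inside. That range was 50.4 to 197 CPM for Strip2, 114 to 185 CPM for Calca, 49.7 to 188 CPM for Veph1, 19.4 to 142 CPM for Ocm and 358 to 472 CPM for Atoh1.

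Strip2, Calca and Veph1 were named as markers of the class. The study picked them as OHC genes on these same P1 libraries, so that their tests, most of all against Fgf8-positive HCs, are no independent evidence. Strip2 (ENSMUSG00000039629) encodes a striatin-interacting protein and lies on the plus strand of chromosome 6, from 29917012 to 29959681 in GRCm38. Calca (ENSMUSG00000030669) encodes calcitonin and, by alternative splicing, the neuropeptide CGRP, and lies on the minus strand of chromosome 7 from 114631478 to 114636357. Veph1 (ENSMUSG00000027831) encodes a protein with a pleckstrin homology domain and spans 243280 bases of the minus strand of chromosome 3, from 66053558 to 66296837. The 250 bases before each start are shown because these 3 genes rose together in the class. The promoter sequences are from RefSeq (GRCm38.p6), printed 5′ to 3′ on the strand of the gene, at chr6:29916762-29917011 (plus), chr7:114636358-114636607 (minus) and chr3:66296838-66297087 (minus), each adjoining the gene's start in GENCODE. Capitals mark CCAAT on either strand (its reverse is ATTGG):
Strip2: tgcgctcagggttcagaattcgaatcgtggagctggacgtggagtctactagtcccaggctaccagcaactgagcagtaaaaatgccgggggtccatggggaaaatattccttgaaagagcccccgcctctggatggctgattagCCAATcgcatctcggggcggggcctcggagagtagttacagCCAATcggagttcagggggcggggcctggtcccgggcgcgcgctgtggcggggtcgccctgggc
Calca: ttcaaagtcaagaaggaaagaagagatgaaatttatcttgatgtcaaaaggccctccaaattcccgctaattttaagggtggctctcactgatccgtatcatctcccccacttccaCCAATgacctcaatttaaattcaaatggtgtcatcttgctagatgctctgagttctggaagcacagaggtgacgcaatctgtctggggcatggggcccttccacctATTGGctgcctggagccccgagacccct
Veph1: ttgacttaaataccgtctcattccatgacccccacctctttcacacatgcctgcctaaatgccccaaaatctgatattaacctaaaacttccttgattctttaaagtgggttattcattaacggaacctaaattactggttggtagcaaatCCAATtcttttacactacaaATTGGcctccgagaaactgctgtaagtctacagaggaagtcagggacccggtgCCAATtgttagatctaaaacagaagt

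CCAAT, the box bound by the general factor NF-Y, occurred 2, 2 and 3 times in the windows of Strip2, Calca and Veph1, against at least once in 33.8% of 32851 RefSeq promoters of the same length. Of the other motifs searched on both strands, CAGCTG (in 13% of all promoters), CAGATG (14.4%), ATTAAT (4.39%) and TATAAA (12.4%) had no match in the 3 windows. The windows differed in base composition, with 62.0%, 48.0% and 40.4% G and C.

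Calca was found at 205, 278, 145 and 237 CPM in later OHCs of replicates 1 to 4 and at 47.4, 48.4, 55.5 and 84.7 CPM in Neurod6-positive OHCs. In Fgf8-positive HCs it was at 6.64, 11.5, 15.9 and 28.7 CPM and in non-hair cells at 0.736 to 1.74 CPM. Every later OHC profile lay above every profile of the other 3 classes, with the lowest later value in replicate 3. Calca rose against non-hair cells (log2 fold change 4.27 ± 0.21 SE, limma's adjusted p = 4.2e-11), against Neurod6-positive OHCs (log2 fold change 1.71 ± 0.18 SE, limma's adjusted p = 2.0e-10) and against Fgf8-positive HCs (log2 fold change 3.17 ± 0.24 SE, limma's adjusted p = 2.6e-11). A log2 fold change here is later OHCs minus the other class on log2(CPM + 10), which understates the change of weakly expressed genes. A gene had to average 10 CPM over both classes to be tested. Calca, near 0 in non-hair cells, passed this filter there only through later OHCs, so that its direction in that comparison was fixed.

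Strip2 stood at 140.1, 198, 115 and 206 CPM in later OHCs, 54.2, 36.2, 63.5 and 51.4 CPM in Neurod6-positive OHCs, 21.9, 42.6, 23.4 and 66.8 CPM in Fgf8-positive HCs and 0.411 to 1.69 CPM in non-hair cells. The groups did not overlap. Against non-hair cells, where it was near 0, Strip2 also passed the filter only through later OHCs, which fixed its direction. It rose in all 3 comparisons, by 3.96 ± 0.21, 1.49 ± 0.20 and 1.90 ± 0.21 on the log2 scale against non-hair cells, Neurod6-positive OHCs and Fgf8-positive HCs (SE; limma's adjusted p = 1.4e-10, 7.5e-08 and 6.1e-08). Veph1 was at 76.8, 197, 144 and 70.9 CPM, against 27.3, 43.1, 58.5 and 11.1 CPM in Neurod6-positive OHCs, 19.9, 21.9, 4.55 and 5.93 CPM in Fgf8-positive HCs and 9.69, 9.86, 11.2 and 7.88 CPM in non-hair cells. Replicates 2 and 3 were high for Veph1 in both OHC classes, and the lowest later value, in replicate 4, was above the highest of these 3 classes. Its changes were 2.64 ± 0.23, 1.57 ± 0.22 and 2.5 ± 0.28 (limma's adjusted p = 5.1e-08, 1.6e-07 and 8.0e-08). At 7.88 to 11.2 CPM in non-hair cells, Veph1 stood about at the filter of 10 CPM, so that this limit largely applies to it as well. As background, 32.0% of 9127 genes tested were higher against non-hair cells, 6.17% of 8766 against Neurod6-positive OHCs and 5.76% of 8896 against Fgf8-positive HCs. Over all genes tested, 2114, 244 and 301 were higher without overlap between the classes in these comparisons. In cells below the Calb2 threshold the means were 103 ± 15.5 CPM for Strip2, 77.0 ± 32.9 CPM for Calca and 69.5 ± 36.0 CPM for Veph1, between those of the Neurod6-positive and the later OHCs, with Strip2 at 82.1 to 116 CPM and Veph1 at 33.1 to 110.1 CPM overlapping the later OHCs over libraries. In replicate 1, 5 of the 22 cells below the threshold were doublet calls and their Kölliker's organ marker sum was 4320 CPM (439 to 955 CPM in the others). The part of this in their levels was not tested.

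**Figure D2:**
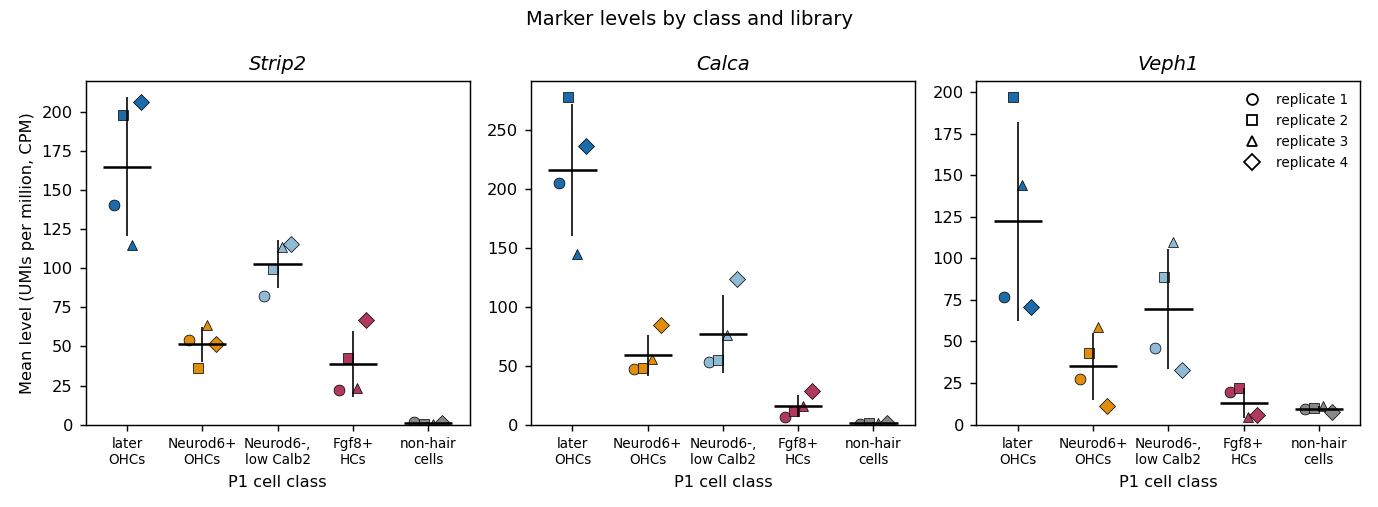
Mean CPM (y axis) of Strip2, Calca and Veph1 in 5 P1 cell classes (x axis); each point is a library (shape), the horizontal bar the mean and the vertical line 1 SD over 4 libraries. The later OHC points of each gene lie above all points of the Neurod6-positive OHCs, Fgf8-positive HCs and non-hair cells, and the means of the cells below the Calb2 threshold lie in between.

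The 3 markers were detected in part of the cells only. With each cell drawn down to 1500 UMIs, so that depth did not differ, 24.4% of later OHCs held a Strip2 UMI (exact 95% interval 19.3% to 30.1%, counting error only), against 6.19% of Neurod6-positive OHCs, 4.42% of Fgf8-positive HCs and 0.167% of non-hair cells. For Calca the shares were 27.5% (22.2% to 33.3%), 7.74%, 2.76% and 0.183%, and for Veph1 12.2% (8.51% to 16.8%), 7.12%, 1.10% and 1.31%. In the OHCs below the Calb2 threshold they were 17.5% for Strip2, 13.7% for Calca and 6.01% for Veph1. Library by library, the Strip2 share was 16.7% to 44.8% in later OHCs, 13.6% to 25.9% below the Calb2 threshold and 4.58% to 8.62% in Neurod6-positive OHCs. The Calca share was 20.7% to 30.4%, 7.41% to 18.2% and 5.41% to 9.16%, and the Veph1 share 9.89% to 17.2%, 4.55% to 8.57% and 3.82% to 11.3%. Over libraries, later OHCs overlapped the cells below the Calb2 threshold for Strip2 and the Neurod6-positive OHCs for Veph1. At full depth 61.1%, 68.7% and 42.7% of later OHCs held a UMI of Strip2, Calca and Veph1. UMIs of all 3 genes together were seen in 59 of 262 later OHCs, 9 of 323 Neurod6-positive OHCs, 0 of 181 Fgf8-positive HCs, which allows a share of up to 1.66%, and 0 of 12546 non-hair cells, which allows up to 0.0239%. These limits are on cells with UMIs of all 3, not on cells that express the genes. None of the 3 was seen in 27 later OHCs and in 175 Neurod6-positive OHCs.

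Against non-hair cells, 2925 of 9127 genes were higher in later OHCs and 2456 lower (32.0% and 26.9%), and the genes with the largest differences were HC genes and genes of the surrounding epithelium. The split of calls depended on scaling: 54.4% of the calls were higher as given, 42.7% (2367 higher, 3176 lower) with median-of-ratios scaling, which moved the median log2 fold change of all genes from 0.08 to -0.12, and 63.3% (3267 and 1895) when the deposited ln values were averaged. Of the 51 genes named for this comparison, 50 kept their call and direction under the 17 alternatives (13 for Ikzf2, which was under the filter in 4 of them), and Npy lost its call under averaged ln values.

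Pcp4, a calmodulin-binding protein, reached 10050.5, 12247, 10080.2 and 6335 CPM in later OHCs and 43.3 to 83.9 CPM in non-hair cells (log2 fold change 7.08 ± 0.12 SE, limma's adjusted p = 3.1e-16). The calcium buffer gene Pvalb was at 1919, 2050.4, 1967 and 1098 CPM against 1.27 to 7.84 CPM (log2 fold change 7.03 ± 0.19 SE, limma's adjusted p = 5.0e-14), with replicate 4 below the other libraries. Pou4f3, a transcription factor that HCs need to survive, was at 1156, 1559, 1260.2 and 1255 CPM against 0.80 to 3.10 CPM (log2 fold change 6.78 ± 0.17 SE, limma's adjusted p = 2.8e-14). None of these 3 genes overlapped between the classes. Of all 9127 genes tested, 2114 were higher and 1656 lower without overlap. A gene near 0 in non-hair cells, such as Pvalb or Pou4f3, passed the filter of 10 CPM only through later OHCs, so that its direction was fixed. Other genes with the largest rises were Acbd7, Lhfpl5 (a subunit of the transduction complex), Ppp1r27, the chemokine gene Ccl21a, Grp (gastrin-releasing peptide), Rasd2, BC030867 and Tomt (needed to bring the transduction channel to the bundle), with log2 fold changes of 5.78 ± 0.21 for Tomt to 6.94 ± 0.18 for Acbd7. Ccl21a has near-identical copies, so that its count is uncertain. Serpina1c and Cacng2, OHC genes that the study chose on these samples, had 0 and 6 UMIs in all non-hair cells. Serpina1c was at least 2231-fold higher against a floor of 3 UMIs over the class. Cacng2 rose by 3.52 ± 0.22 and Mslnl by 4.22 ± 0.33.

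Genes of other cochlear cells were lower. Lum (lumican) was at 93.6, 0, 8.93 and 24.6 CPM in later OHCs and 1958, 1051, 948 and 2334 CPM in non-hair cells (log2 fold change -5.68 ± 0.27 SE, limma's adjusted p = 3.0e-11). Replicate 1 held the most Lum of the 4 later profiles, and the classes did not overlap. The matrix gene Epyc fell from 3080.0 to 85.9 CPM (log2 fold change -5.42 ± 0.27 SE, limma's adjusted p = 5.7e-11), and Hes1, the Notch effector that keeps supporting cells from becoming HCs, from 879 to 17.8 CPM (log2 fold change -4.94 ± 0.25 SE, limma's adjusted p = 7.4e-11). Cnmd, Mia, Meg3, Tmsb4x, Crabp1, Wfdc2, Rgcc, Gsn and Itm2a were the other genes that fell most, with log2 fold changes of -4.84 ± 0.23 for Itm2a to -5.27 ± 0.22 for Cnmd. Of 12 tested markers of Kölliker's organ, interdental and sulcus cells, 12 were lower (median log2 fold change -4.69, against 0.08 over all genes tested), and of 15 supporting cell markers 14 were lower and none higher (median -2.20), Npy and Fabp7 most (-3.27 ± 0.35 and -3.08 ± 0.33). Over all genes tested 26.9% were lower. These markers name cells of the non-hair class, so that the counts describe the classes and are no test of them. A marker near 0 in later OHCs, such as Fabp7 with 9 UMIs, passed the filter of 10 CPM only through non-hair cells, which fixed its direction.

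The lists by role are given as a description, since a gene had to average 10 CPM over both classes to be tested, and one near 0 in non-hair cells passed only where later OHCs held it. Over all genes tested 32.0% were higher and 26.9% lower. Of 20 mechanotransduction and tip link genes 15 passed this filter, and 14 of these were higher than in non-hair cells (median 3.05), led by Lhfpl5 at 6.86 ± 0.18, Tomt, Cib2 at 5.56 ± 0.11 and Myo7a at 4.44 ± 0.19. Ush1c, the scaffold harmonin, was the only one lower (-1.24 ± 0.26, named after its value was seen). Of 30 stereocilia genes 19 were higher and 6 lower, the latter a smaller share than over all genes, with Grxcr1 at 5.32 ± 0.28 and the actin crosslinker gene Fscn2 at 5.0 ± 0.19. Ribbon synapse genes were higher in 13 of 16 and lower in 1, among them Otof (5.47 ± 0.20), which encodes the calcium sensor of vesicle release, and the calcium channel gene Cacna1d (3.68 ± 0.21). Calcium buffers and pumps were higher in 12 of 14 and lower in 1 (Atp2b2 3.28 ± 0.25, Ocm 3.09 ± 0.31), efferent and ionotropic receptor genes in 6 of 7 and lower in none (Chrna10 4.68 ± 0.20, Chrna9 4.39 ± 0.20), and cilium genes higher in 17 of 23 and lower in 1 (Dynlrb2 4.63 ± 0.21). HC transcription factors went both ways, with 15 of 25 higher and 8 lower. Barhl1 rose by 5.47 ± 0.19, Casz1 by 5.35 ± 0.18 and Atoh1 by 4.85 ± 0.19, while Isl1 (-2.20 ± 0.14) and Sox2 (-1.69 ± 0.22) were lower (both named after their values were seen). Of the 15 genes listed for late OHCs, 11 passed the filter on low values, and 8 of these were higher and 3 lower. The lower ones, named after their values were seen, were Aqp11 (-1.46 ± 0.24), Ikzf2 (-1.36 ± 0.25) and Sri (-0.83 ± 0.18). Ikzf2, with 5 UMIs in later OHCs, passed the filter only through non-hair cells, so that its direction was fixed.

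Against Neurod6-positive OHCs, later OHCs had 541 of 8766 genes higher and 639 lower (6.17% and 7.29%). Of the 8766 genes, 244 were higher and 310 lower without overlap between the classes. This comparison shares the later profiles with the other comparisons. With Myo6, Ccer2 and the other gate genes out, the median change over all genes was -0.02. Later OHCs held more Pla2g7, Lmod3, Pkhd1l1 and Serpina1c and less Nnat, Stmn1, Chrng and Atoh1. Leaving out the cells of more than 3000 genes cut the counts to 180 and 236 of 8655. Leaving out a library in turn gave 355 to 444 higher and 414 to 552 lower of 8562 to 8787 genes tested. These numbers are the background of list counts given below for such settings.

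Pla2g7, the gene of platelet-activating factor acetylhydrolase, was at 1073, 899.7, 324 and 1042 CPM in later OHCs and 221, 86.7, 44.1 and 28.8 CPM in Neurod6-positive OHCs (log2 fold change 3.21 ± 0.19 SE, limma's adjusted p = 6.3e-20). Lmod3, an actin filament nucleator gene on the list for late OHCs, was at 87.4, 132, 69.0 and 119 CPM against 5.43, 0, 11 and 7.5 CPM (log2 fold change 2.82 ± 0.27 SE, limma's adjusted p = 5.5e-12). Pkhd1l1, which encodes a coat protein of stereocilia, was at 146, 309, 212 and 187 CPM against 9.96, 63.8, 34.6 and 9.88 CPM (log2 fold change 2.67 ± 0.21 SE, limma's adjusted p = 5.1e-15). For each of the 3 genes all later values were above all Neurod6-positive ones, although Pla2g7 was lowest in replicate 3 and Pkhd1l1 highest in replicate 2. Serpina1c, of the alpha-1-antitrypsin family, was at 43.3, 115, 175 and 83.2 CPM against 6.74, 14.2, 15.7 and 1.32 CPM (log2 fold change 2.48 ± 0.26 SE, limma's adjusted p = 7.8e-11); it belongs to a family of near-identical copies, among which reads may have been divided. Cacng2, the AMPA receptor partner stargazin, was at 66.5, 107, 129 and 131 CPM against 8.69, 35.6, 43.3 and 17.3 CPM (log2 fold change 1.79 ± 0.23 SE, limma's adjusted p = 2.4e-08), and the 2 classes did not overlap. Urah, Tnfaip1, AC144938.1, the matrix proteoglycan gene Vcan, Nf2 (merlin) and Mslnl completed the genes with the largest rises beside Calca, at 1.70 ± 0.19 for Mslnl to 2.15 ± 0.26 for Urah. Tnfaip1 and Mslnl overlapped between the classes and were higher in 4 of 4 libraries.

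Nnat, a paternally expressed gene of a small membrane protein, stood at 62.5, 17.9, 70.7 and 55.2 CPM in later OHCs and 1474, 1593, 1809 and 1176 CPM in Neurod6-positive OHCs (log2 fold change -4.72 ± 0.16 SE, limma's adjusted p = 2.8e-31), the largest fall among the genes called. Stmn1, which encodes the microtubule-destabilizing protein stathmin, was at 44.0, 13, 24.1 and 30.2 CPM against 265, 339, 219 and 145 CPM (log2 fold change -2.74 ± 0.22 SE, limma's adjusted p = 8.3e-15). Chrng, the gamma subunit of the fetal muscle nicotinic receptor, was at 4.65, 0, 3.98 and 2.93 CPM against 172, 91.1, 75.9 and 69.5 CPM (log2 fold change -3.05 ± 0.27 SE, limma's adjusted p = 3.3e-13). The classes were apart in each library for these 3 genes, and 7 Chrng UMIs were counted in all later OHCs against 204 in Neurod6-positive OHCs. Chrng passed the filter of 10 CPM only through Neurod6-positive OHCs, so that its direction was fixed. Pdlim4, the tight junction gene Cldn3, the vesicle motor gene Myo5b, Ly6e, the lysosomal mannosidase gene Man2b2, Igsf8, Phlda1, the ATP-gated channel gene P2rx3 and Ecel1 were the other genes that fell most, with log2 fold changes of -2.03 ± 0.29 for Ecel1 to -2.67 ± 0.24 for Pdlim4. Of these 9 genes Ly6e overlapped between the classes. Myo5b and Ecel1, at 4.78 and 2.93 CPM in later OHCs, also passed the filter only through Neurod6-positive OHCs.

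**Figure D3:**
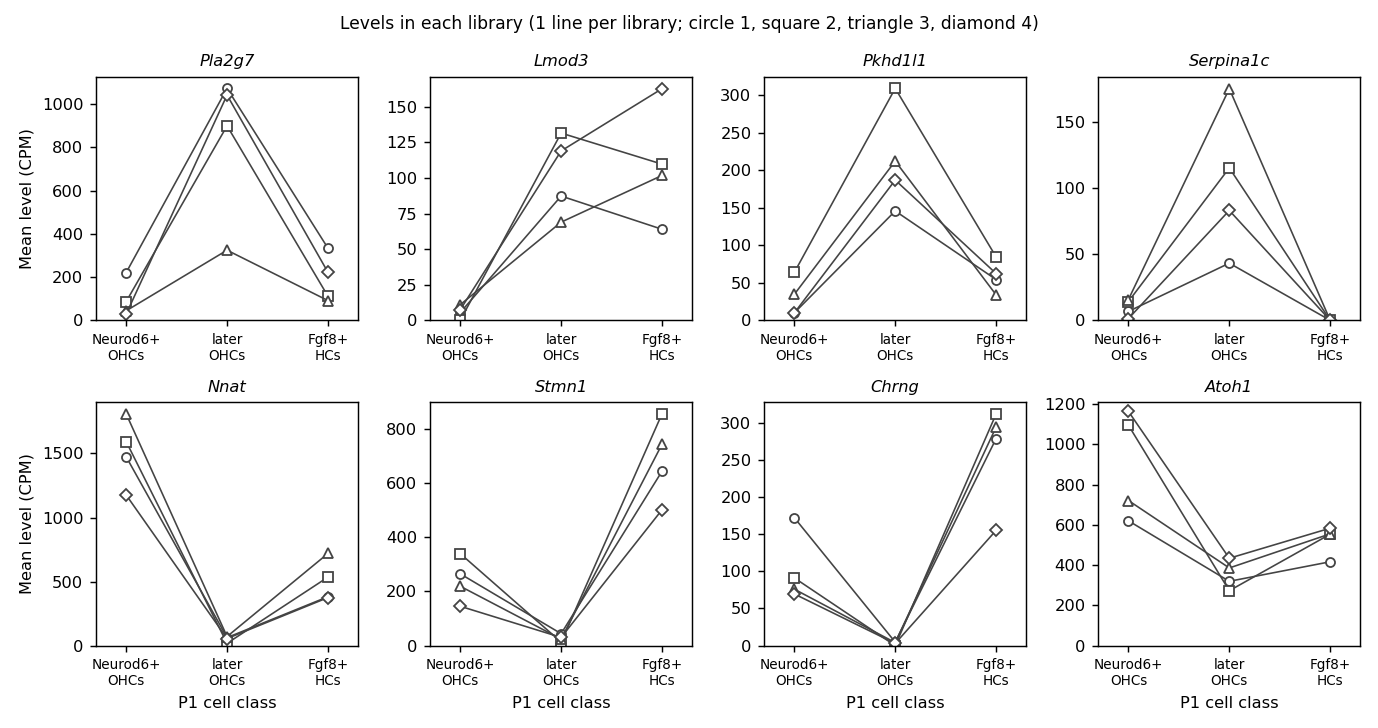
Mean CPM (y axis, from 0, own scale per gene) of 8 genes in Neurod6-positive OHCs, later OHCs and Fgf8-positive HCs (x axis), with 1 line per library and its shape given in the title. Pla2g7, Lmod3, Pkhd1l1 and Serpina1c rose and Nnat, Stmn1, Chrng and Atoh1 fell from Neurod6-positive to later OHCs in 4 of 4 libraries.

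Hair bundle genes were called in both directions between the OHC classes. Of 27 tested stereocilia genes, 7 were higher in later OHCs and 4 lower (median 0.18), where 6.17% of all genes were higher and 7.29% lower. Strc (stereocilin, which links the tips of stereocilia) was at 68.8, 134, 114 and 121 CPM against 63.5, 44.9, 48.2 and 38.5 CPM (log2 fold change 1.00 ± 0.21 SE, limma's adjusted p = 4.6e-04), and the groups did not overlap. Gipc3 rose by 0.83 ± 0.16, Baiap2l2 by 0.75 ± 0.23, Fscn2 by 0.71 ± 0.13 and Grxcr1 by 0.65 ± 0.14, while the actin gene Actb fell from 1175 to 651 CPM (-0.83 ± 0.09, limma's adjusted p = 5.3e-10). Of 16 mechanotransduction and tip link genes 3 were higher and 3 lower (median 0.02), against the same 6.17% and 7.29%. Tomt was at 622, 719, 772 and 339 CPM against 350.0, 554, 531 and 143 CPM (log2 fold change 0.73 ± 0.12 SE, limma's adjusted p = 5.8e-06) and Cib2 at 5022, 6159, 6023 and 5077 CPM against 3808, 4687, 4759 and 3585 CPM (log2 fold change 0.41 ± 0.05 SE, limma's adjusted p = 1.8e-08). Both were higher in 4 of 4 libraries, but the range of Tomt over libraries overlapped. Loxhd1 rose by 0.82 ± 0.23. Ush1c fell by 1.23 ± 0.25 and Pcdh15, a tip link gene that was lower in 3 of 4 libraries, fell by 0.65 ± 0.22. Baiap2l2 lost its call without replicate 2 (log2 fold change 0.51, adjusted p = 0.24) or 3 (0.73, adjusted p = 0.097), Loxhd1 without replicate 4 (0.76, adjusted p = 0.081) and Pcdh15 without replicate 1, 2 or 3 (-0.44 to -0.60, adjusted p = 0.15 to 0.30), all by limma. Leaving out replicate 1, 2, 3 or 4 gave 6, 8, 5 and 6 stereocilia genes higher and 5, 2, 3 and 3 lower.

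At the synapse, 3 of 18 ribbon and vesicle genes were higher and none lower (median 0.09; 6.17% and 7.29% over all genes), and 1 of 18 was higher without cells of more than 3000 genes. Otof was at 358, 658, 466 and 500.3 CPM against 205, 298, 309 and 176 CPM (log2 fold change 0.98 ± 0.13 SE, limma's adjusted p = 5.2e-08) and Cacna1d at 105, 151, 153 and 216 CPM against 53.7, 61.8, 82.5 and 118 CPM (log2 fold change 0.92 ± 0.18 SE, limma's adjusted p = 1.2e-04). Otof did not overlap between the classes and Cacna1d did, through replicate 1 of the later OHCs and replicate 4 of the others. Kcnj13, an inward rectifier of potassium, rose from 41.6, 12, 6.39 and 23.5 to 123, 60.1, 54.9 and 69.1 CPM (log2 fold change 1.57 ± 0.24 SE, limma's adjusted p = 2.4e-06). Otof and Kcnj13 are also IHC markers, and UMIs of 2 or more of 6 IHC markers (Slc17a8, Otof, Shtn1, Atp2a3, Cabp2 and Kcnj13) were found in 50.5%, 24.1%, 23.3% and 24.1% of later OHCs and in 10.7% to 16.2% of Neurod6-positive OHCs. These shares were counted at full depth, which was highest in replicate 1. Shtn1, Atp2a3 and Cabp2 were at or near 0 in both OHC classes, apart from Cabp2 at 6.54 to 31.8 CPM in Neurod6-positive OHCs. Without the 87 later OHCs that held 2 or more of the 6, 343 genes were higher and 453 lower, and Kcnj13 turned to -1.23 (limma's adjusted p = 0.013), which leaving out cells by their own Kcnj13 UMIs fixes in part. Without the 4 cells with Shtn1, Atp2a3 or Cabp2, the counts were 540 and 646.

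Calcium buffers and pumps were higher in 4 of 14 (6.17% over all genes) and lower in 1, a share near the 7.29% over all genes (median -0.05). Only 2 were higher without replicate 2 or without replicate 3, and 2 were lower without replicate 1. Ocm, the OHC buffer oncomodulin, was at 149, 109, 23.4 and 172 CPM in later and 23.2, 27.6, 30.0 and 74.4 CPM in Neurod6-positive OHCs (log2 fold change 1.19 ± 0.25 SE, limma's adjusted p = 3.5e-04). It was higher in replicates 1, 2 and 4 and lower in replicate 3, so that the groups overlapped. Calb1 was at 3720.2, 1777, 1502 and 3061 CPM against 1953, 784, 662 and 1538 CPM (log2 fold change 1.06 ± 0.07 SE, limma's adjusted p = 7.3e-17); each library showed the rise, with overlapping ranges. Necab2 fell from 128, 122, 99.7 and 81.5 to 21.2, 9.31, 33.7 and 17.3 CPM (log2 fold change -2.0 ± 0.24 SE, limma's adjusted p = 3.3e-09), without overlap. Of 9 potassium channel genes Kcnj13 and Kcnn2 (0.76 ± 0.24) were higher and 1, the leak channel gene Kcnk1, lower (log2 fold change -1.05 ± 0.17 SE, limma's adjusted p = 7.6e-06). Without replicate 4, 1 was higher, and without replicate 2, 2 were lower.

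Receptor genes changed subunit by subunit. Of 8 tested, 4 were higher and 2 lower (median 0.49), beside 6.17% and 7.29% of all genes. Chrna10, the partner of Chrna9 in the efferent receptor of HCs, was at 291, 321, 309 and 176 CPM in later and 134, 274, 258 and 100.5 CPM in Neurod6-positive OHCs (log2 fold change 0.57 ± 0.15 SE, limma's adjusted p = 0.0049), and Chrna9 at 274, 201, 203 and 189 CPM against 406, 338, 385 and 404 CPM (log2 fold change -0.80 ± 0.13 SE, limma's adjusted p = 5.6e-06). Chrna9 was lower in 4 of 4 libraries without overlap while Chrna10 was higher in 4 of 4 with overlap, and the call of Chrna10 was lost without replicate 1 (0.41, limma's adjusted p = 0.097). The muscle-type subunit gene Chrna1 rose by 0.98 ± 0.23 and Chrng fell, as given with the genes that changed most. The serotonin receptor channel gene Htr3a was at 57.6, 69.6, 125 and 58.3 CPM against 6.97, 37.7, 54.3 and 15.8 CPM (log2 fold change 1.3 ± 0.24 SE, limma's adjusted p = 5.9e-05), without overlap. With cells of more than 3000 genes left out, 1 receptor gene was higher and 2 lower.

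Peptide and dense core vesicle genes were divided as well, with 3 of 9 higher and 2 lower (median 0.25), beside 6.17% and 7.29% of all genes. Beside Calca, Scg3 rose from 106, 78.5, 106 and 78.7 to 128, 183, 205 and 123 CPM (log2 fold change 0.71 ± 0.18 SE, limma's adjusted p = 0.0029) and Cpe, the carboxypeptidase that trims prohormones, by 0.61 ± 0.10 (limma's adjusted p = 4.6e-06). Chga (chromogranin A) fell from 278, 281, 252 and 286 to 138, 87.9, 118 and 88.7 CPM (log2 fold change -1.29 ± 0.16 SE, limma's adjusted p = 6.4e-09), without overlap, and Cadps2, which primes dense core vesicles, fell by 1.21 ± 0.26 (limma's adjusted p = 5.3e-04). These 5 calls held without each library in turn.

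Of 24 tested HC transcription factors, 2 were higher in later OHCs, a share near the 6.17% over all genes, and 8 lower (median -0.12), and of 16 tested Notch ligands and early commitment genes 8 were lower and none higher (median -0.59), 4 genes being in both lists. Over all genes 7.29% were lower. Atoh1, the factor that starts the HC fate, was at 319.5, 273, 386 and 434 CPM in later OHCs and 620.1, 1095, 721 and 1164 CPM in Neurod6-positive OHCs (log2 fold change -1.3 ± 0.12 SE, limma's adjusted p = 1.5e-12), and the groups did not overlap. Sox2, a factor of prosensory and supporting cells, was at 14.0, 8.27, 36.7 and 41.0 CPM against 63.2, 74.8, 46.1 and 83.2 CPM (log2 fold change -1.24 ± 0.26 SE, limma's adjusted p = 3.8e-04) and Isl1 at 158, 107, 134 and 129.9 CPM against 293, 281, 263 and 367 CPM (log2 fold change -1.13 ± 0.15 SE, limma's adjusted p = 4.9e-08), both without overlap. The other factors that were lower were Hes6 (-0.67 ± 0.09), Insm1 (-1.06 ± 0.26), known to keep OHCs from taking on IHC genes, Nr2f2 (-0.90 ± 0.28), Lhx3 (-0.65 ± 0.14) and Pou4f3 (-0.39 ± 0.09). Casz1 (0.49 ± 0.12) was higher, and Rest, a repressor of neuronal genes, rose from 8.09, 14.6, 15.5 and 16.3 to 15.4, 41.6, 60.7 and 47.2 CPM (log2 fold change 1.04 ± 0.27 SE, limma's adjusted p = 0.0052). The Notch ligand gene Dll3 fell from 266, 223, 205 and 61.4 to 62.7, 68.5, 97.6 and 14.5 CPM (log2 fold change -1.51 ± 0.19 SE, limma's adjusted p = 1.4e-08) and the cell cycle inhibitor gene Cdkn1a from 85.6, 48.7, 117 and 185 to 11.5, 13.4, 12.3 and 81.2 CPM (log2 fold change -1.77 ± 0.24 SE, limma's adjusted p = 8.9e-08), where replicate 4 was the highest in both classes. Both genes were lower in 4 of 4 libraries, with overlapping ranges. Insm1 lost its call without replicate 2 (-0.58, adjusted p = 0.14), Rest without replicate 3 (0.90, adjusted p = 0.070), Lhx3 without replicate 4 (-0.50, adjusted p = 0.060) and Nr2f2 without replicate 1 or 4 (-0.71 and -0.90, adjusted p = 0.18 and 0.11). Without replicate 4 the 24 factors gave 2 higher and 5 lower, and without replicate 1 or without replicate 3, 1 was higher.

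Microtubule genes were lower in 5 of 14 (7.29% over all genes) and higher in 1, near the 6.17% over all genes (median -0.27). Beside Stmn1, the tubulin gene Tuba1a was at 1107, 946, 1009 and 649 CPM against 1867, 1529, 1815 and 1019 CPM (log2 fold change -0.73 ± 0.08 SE, limma's adjusted p = 5.6e-10), and Map1b (-0.68 ± 0.14) and Stmn3 (-0.67 ± 0.16) were lower. Map2 rose by 0.80 ± 0.23, a call lost without replicate 3 (0.70) or 4 (0.73; limma's adjusted p = 0.085 and 0.082). Of 24 cilium and axoneme genes 4 were lower and 1 higher (median -0.01; 7.29% and 6.17% over all genes). Cfap126 was at 172, 66.3, 109 and 62.0 CPM against 335, 339, 258 and 168 CPM (log2 fold change -1.4 ± 0.17 SE, limma's adjusted p = 5.1e-09), with overlapping groups through replicate 1 of the later OHCs and replicate 4 of the others, and Tekt2 fell by 0.87 ± 0.24, losing its call when replicate 3 or 4 was left out (-0.76 and -0.70, limma's adjusted p = 0.077 and 0.15). Of the 24, 1 was lower and none higher without replicate 4, and 2 were lower without replicate 3. Among the other markers, 1 of 8 supporting cell genes (Sox2) and 0 of 9 genes of Kölliker's organ and its neighbours were called, and 1 of 4 of mesenchyme, glia, neurons and blood (Nefm, -0.57 ± 0.11).

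The late OHC list itself gave 4 higher genes (Lmod3, Ocm, Dnm3 and Chrna10) and 1 lower (Chrna9) of 10 tested, with 5 of its 15 genes under the filter (median 0.40). Of these, Lmod3 passed the filter only through later OHCs, so that its direction was fixed. Over all genes 6.17% were higher and 7.29% lower, and 1 lower of 10 is near that share. Dnm3, a dynamin gene, was at 85.6, 80.1, 49.2 and 70.8 CPM against 28.1, 24.7, 44.2 and 33.1 CPM (log2 fold change 0.93 ± 0.24 SE, limma's adjusted p = 0.0037). With cells of more than 3000 genes left out, 1 of the 10 was higher and 1 lower, where 180 of all 8655 genes were higher and 236 lower. Of the genes named here 13 lost their calls without such cells, and all 13 kept their direction. The log2 fold change came nearer to 0 for Ocm (0.72), Dnm3 (0.71), Strc (0.82) and Cacna1d (0.81). It was about as large as with all cells for Ush1c (-1.22), Lhx3 (-0.64), Grxcr1 (0.67), Chrna1 (0.99), Chrna10 (0.59) and Insm1 (-1.09), and larger for Pcdh15 (-0.98), Nr2f2 (-1.25) and Map2 (0.87). Without the same cells 2 stereocilia and 1 transduction gene were lower, 2 calcium and 1 potassium channel gene higher, 1 factor higher and 5 lower, and 5 Notch and commitment genes lower. The study ordered OHCs of these libraries in pseudotime and sorted genes into 4 phases from early to late. These lists were chosen on the same cells, so that they are no independent evidence of direction. Of phase 1 genes 0 were higher and 161 lower of 372 tested (median -0.54), of phase 2 genes 1 and 375 of 817 (-0.48), of phase 3 genes 401 and 1 of 796 (0.52) and of phase 4 genes 68 and 1 of 172 (0.59). The shares over all genes tested were 6.17% higher and 7.29% lower. Without replicate 4 the lower calls of phases 1 and 2 numbered 104 and 233 and the higher ones of phase 4 numbered 40, and without replicate 2 the higher ones of phase 4 numbered 42. Without cells of more than 3000 genes, the medians were -0.59, -0.49, 0.50 and 0.63 with 72 and 156 lower and 152 and 21 higher.

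**Figure D4:**
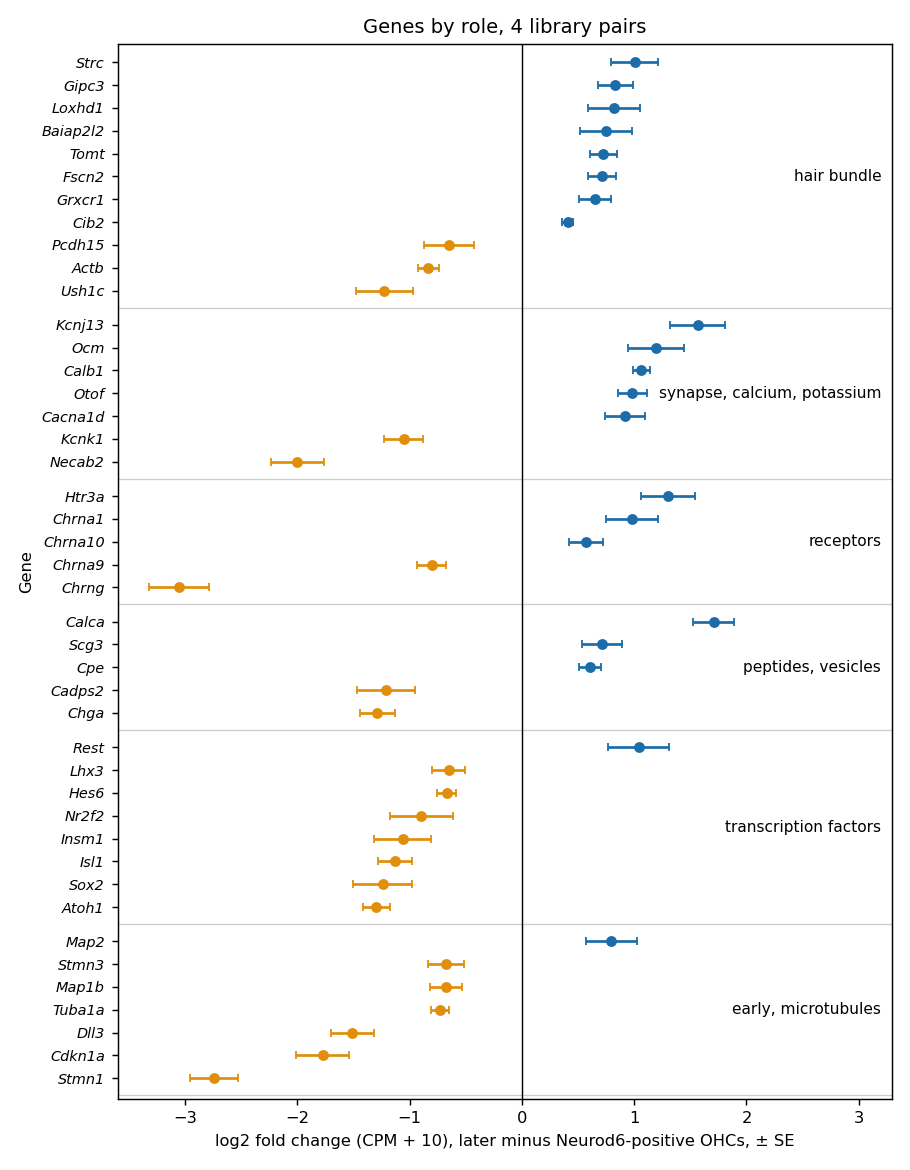
Log2 fold change on log2(CPM + 10) with limma's moderated SE (x axis), for genes grouped by role (y axis), all of which passed the test. It is later minus Neurod6-positive OHCs over 4 library pairs. Blue points (higher in later OHCs) and orange points (lower) occur together in the bundle, synapse, receptor and vesicle groups. Most of the transcription factors and of the early and microtubule genes shown lie below 0. Over the whole lists 8 of 24 factors and 5 of 14 microtubule genes were lower, and 2 and 1 higher. Casz1 (higher) and Pou4f3 (lower) are not shown.

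Against Fgf8-positive HCs, the class with IHC markers, 512 of 8896 genes were higher in later OHCs and 469 lower (5.76% and 5.27%). Without cells of more than 3000 genes the numbers were 169 and 141 of 8791. Leaving out a library in turn gave 363 to 428 higher and 324 to 393 lower of 8658 to 8949 genes tested. These numbers are the background of list counts given below for such settings. Of the 8896 genes, 301 were higher and 359 lower without overlap between the classes. The 8 tested IHC markers were lower (median -2.51), which the choice of classes and genes fixes in large part. The study named several of them on these libraries, and 6 of the 8, at or near 0 in later OHCs, passed the filter only through the Fgf8-positive HCs. Cabp2, a calcium-binding protein of the IHC synapse, was at 1.19, 0, 0 and 0 CPM in later OHCs and 821, 709, 584 and 286 CPM in Fgf8-positive HCs (log2 fold change -5.79 ± 0.24 SE, limma's adjusted p = 7.7e-18). Fam19a3, Atp2a3 and Dnajc5b, without a UMI in later OHCs, were at least 119-fold, 51.3-fold and 14.5-fold lower against a floor of 3 UMIs over the class. Otof fell from 891, 1349, 1336 and 1051 to 358, 658, 466 and 500.3 CPM (log2 fold change -1.22 ± 0.10 SE, limma's adjusted p = 4.8e-11) and Kcnj13 fell by 1.89 ± 0.17. None of the 8 overlapped between these classes, and the level of Otof lay between those of the other HC classes.

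Cdh1, the E-cadherin gene, led the genes that were higher, at 136, 153, 219 and 204 CPM in later OHCs and 3.64, 0, 2.08 and 9.72 CPM in Fgf8-positive HCs (log2 fold change 3.78 ± 0.27 SE, limma's adjusted p = 3.5e-12). Cacng2 was at 2.70, 0, 0 and 0 CPM in Fgf8-positive HCs (log2 fold change 3.44 ± 0.30 SE, limma's adjusted p = 4.7e-10), and Serpina1c and the transcription factor gene Bcl11b, both without a UMI there, were at least 46.8-fold and 36.2-fold higher. The groups of these 4 genes did not overlap. All 4 were under 10 CPM in Fgf8-positive HCs and passed the filter only through later OHCs, so that their direction was fixed. The study also chose Cacng2, Serpina1c, Calca and Mslnl as OHC genes on these libraries. Efna5, Agpat2, Calca, Mslnl, Urah, Mpc1 (the mitochondrial pyruvate carrier), Igfbp5 and Tmem229a were the other genes with the largest rises, at 2.87 ± 0.31 for Tmem229a to 3.40 ± 0.29 for Efna5. Of these, Efna5, Agpat2, Urah and Tmem229a also averaged under 10 CPM in Fgf8-positive HCs, with the same limit. Among the genes that fell most were Chrng (-4.36 ± 0.26), Stmn1 (-4.24 ± 0.20), Shtn1 (-4.12 ± 0.28), Ecel1, Kcp, Ppm1j, Nnat (-3.12 ± 0.21), Necab2 and Anxa5. Chrng, Shtn1, Ecel1 and Ppm1j averaged under 10 CPM in later OHCs and passed the filter only through Fgf8-positive HCs, which fixed their direction. Stmn1 and Chrng had a lower mean in later OHCs than in the other HC classes compared, as did Nnat at 51.5 CPM against 503 CPM in Fgf8-positive HCs.

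Bundle genes also differed between later OHCs and Fgf8-positive HCs, where 5.76% of all genes were higher and 5.27% lower. Of 16 mechanotransduction genes 3 were higher and none lower (median 0.02), namely Piezo2 (1.58 ± 0.31), Whrn (1.39 ± 0.20) and Tomt (0.43 ± 0.11), and of 27 stereocilia genes 4 were higher and 3 lower, Strc most (log2 fold change 1.68 ± 0.26 SE, limma's adjusted p = 1.3e-05). Without replicate 4, 2 stereocilia genes were higher. Piezo2 was near 0 in Fgf8-positive HCs, with 6 UMIs in the class, and was tested through the later OHCs. Of 14 calcium genes 7 were lower and 3 higher (median -0.33). S100a1 was at 925, 1002, 965 and 646 CPM against 5799, 5990.2, 5714 and 3273 CPM (log2 fold change -2.52 ± 0.06 SE, limma's adjusted p = 1.6e-23) and Pvalb at 1919, 2050.4, 1967 and 1098 CPM against 4755, 4739.6, 3881 and 2579 CPM (log2 fold change -1.18 ± 0.06 SE, limma's adjusted p = 1.9e-15), both without overlap, and Necab2 fell by 3.05 ± 0.22. Atp2b2, the calcium pump of OHC bundles, rose by 1.06 ± 0.22. Of 22 ribbon and vesicle genes 1 was higher and 5 lower, among them Slc17a8, the vesicular glutamate transporter gene (-1.48 ± 0.31), which passed the filter only through the Fgf8-positive HCs, so that its direction was fixed. Of 10 potassium channel genes 4 were lower and none higher, Kcna10 most (log2 fold change -1.92 ± 0.20 SE, limma's adjusted p = 1.4e-08).

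Receptor genes gave 2 higher and 3 lower of 7. Over all 8896 genes 5.76% were higher and 5.27% lower, which is the background of each list count over all cells given below. Htr3a rose from 8.54, 0, 0 and 2.65 to 57.6, 69.6, 125 and 58.3 CPM (log2 fold change 2.76 ± 0.32 SE, limma's adjusted p = 1.3e-07) and Chrna10 by 0.92 ± 0.18, while Chrna1 fell from 401, 221, 226 and 235 to 141, 83.3, 43.6 and 56.7 CPM (log2 fold change -1.69 ± 0.18 SE, limma's adjusted p = 1.7e-08) and Chrna9 fell by 0.61 ± 0.14, a call lost without replicate 4 (-0.48, limma's adjusted p = 0.056). Of 24 transcription factors 4 were higher, Bcl11b and Insm1 (1.4 ± 0.32) most, and 4 lower (2 lower without replicate 2). Insm1 lost its call without replicate 4 (1.15, limma's adjusted p = 0.072). Htr3a and Bcl11b, with 3 and 0 UMIs in Fgf8-positive HCs, passed the filter only through later OHCs, so that their direction was fixed. Insm1, Dnm3 and Fgfr3 held few UMIs there as well (8, 5 and 8). Of 10 late OHC genes 5 were higher and 1 lower (median 0.85), with Dnm3 at 2.55 ± 0.31 and Ocm at 0.81 ± 0.26, and Ocm lost its call without replicate 1, 2 or 4 (0.59 to 0.75, limma's adjusted p = 0.10 to 0.28). Lmod3, which separated the OHC classes, did not pass the test here (-0.07 ± 0.20; 64.0, 109.8, 102 and 163 CPM in Fgf8-positive HCs). Of 9 peptide genes Calca, Chgb (1.28 ± 0.26), Scg3 (1.04 ± 0.20) and Cpe (0.60 ± 0.09) were higher and Chga (-1.08 ± 0.16) and Cadps2 (-1.20 ± 0.28) lower, and the call of Cadps2 was lost without replicate 1 (-1.02, limma's adjusted p = 0.054). Without cells of more than 3000 genes 10 named genes lost their calls and kept their direction. The log2 fold change came nearer to 0 for Fgfr3 (1.02), Chga (-0.57) and Chrna9 (-0.33), and stayed close to that of all cells, or was larger, for Ocm (0.74), Tomt (0.40), Atp2b2 (1.04), Insm1 (1.42), Piezo2 (1.64), Slc17a8 (-1.55) and Cadps2 (-1.33). Among the lists, 3 late OHC genes, 1 transduction gene, 2 stereocilia genes, 1 calcium gene and 2 factors were then higher. Lower were 1 stereocilia gene, 2 ribbon and vesicle genes and no factor or peptide gene. Of the receptor genes 2 were higher and 2 lower, 4 peptide genes were higher, and 7 calcium and 3 potassium channel genes lower. Over all 8791 genes tested in this setting, 169 were higher and 141 lower. Tubb2b rose by 1.83 ± 0.17, and Fgfr3, a receptor gene of supporting cells and OHC precursors, by 1.78 ± 0.32, as the only one higher of 9 supporting cell markers.

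Within the class, the cells were set apart by Calb2 itself, below 2.5 (18, 11, 18 and 46 cells in replicates 1 to 4) and from 2.5 up (73, 18, 12 and 66 cells), as a description without a test. Median depth was slightly higher below 2.5, at 10342, 7180, 8114 and 5101.5 UMIs against 9655, 6821, 7510.5 and 4952.5. Strip2 was higher from 2.5 up in 4 of 4 libraries, at 162, 199, 180 and 242 CPM against 50.4, 197, 71.7 and 155 CPM. Pla2g7 was at 1280.2, 1143, 466 and 1266 CPM against 232, 501, 230 and 721 CPM, and Lmod3 at 104, 175, 126 and 158 CPM against 18, 60.8, 30.8 and 63.3 CPM. Both were higher in 4 of 4 libraries, as was Ocm, and the 2 Lmod3 ranges did not overlap. Atoh1 was lower from 2.5 up in 4 of 4, at 293, 221, 256 and 408 CPM against 428, 358, 472 and 472 CPM, and so was Stmn1, at 37.3, 8.06, 0 and 13.5 CPM against 71.1, 21, 40.2 and 54.1 CPM. Calca, Veph1, Cacng2 and Serpina1c were higher in 3 of 4, Nnat, Insm1 and Sox2 lower in 3 of 4, and Hes6 was lower in 2 of 4.

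**Figure D5:**
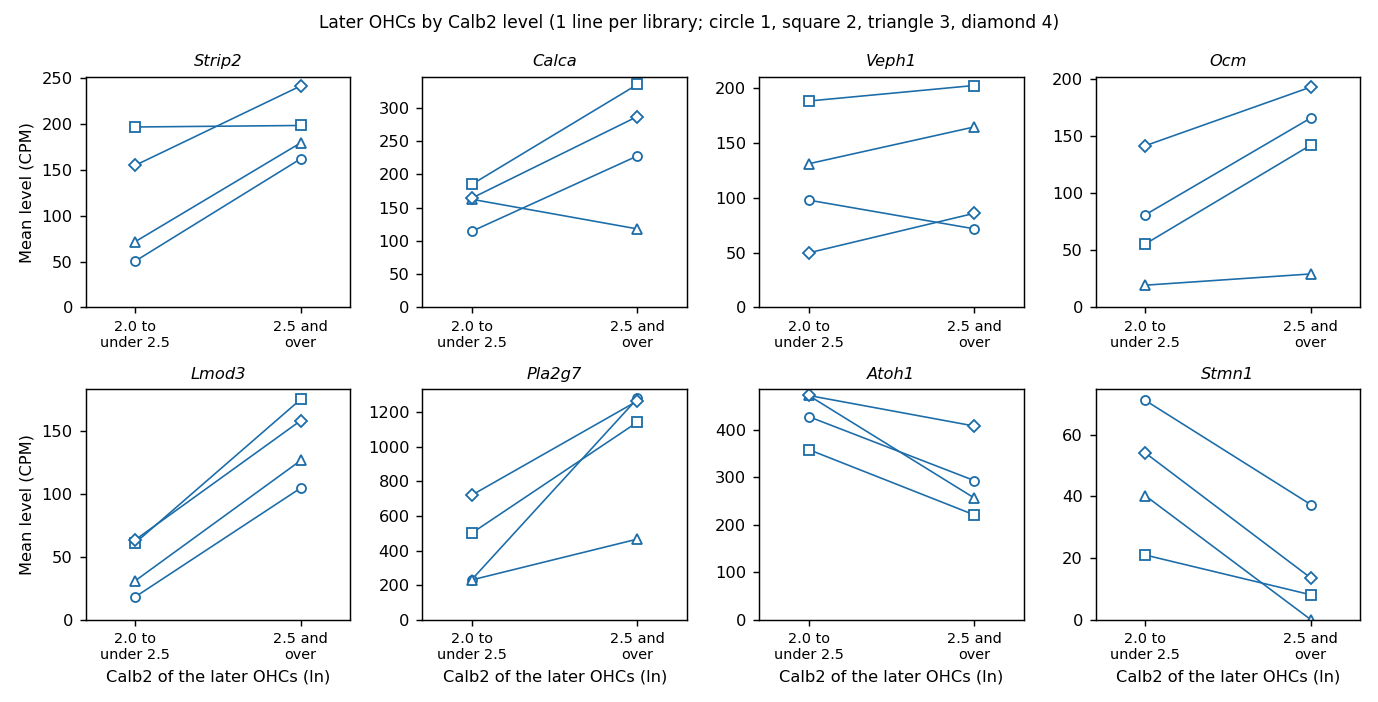
Mean CPM (y axis, from 0) of 8 genes in later OHCs with Calb2 of 2.0 to under 2.5 and of 2.5 and over (x axis, ln values), with 1 line per P1 library and its shape given in the title. Strip2, Ocm, Lmod3 and Pla2g7 are higher at the upper Calb2 level and Atoh1 and Stmn1 lower in 4 of 4 libraries; Calca and Veph1 go both ways.

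At the other ages the same gate found few cells. It took 6 cells at E16, 2 in each of 3 libraries, of 415 cells of the hair cell gate, whereas 105 E16 cells were Neurod6-positive OHCs by the same rule. At E14 it took 1 of 17 and at P7 2 of 5 cells of the hair cell gate. The thresholds were set on P1 cells, and the gate is no count of the HCs at other ages: of 3377 P7 cells 408 passed the Myo6 threshold and 8 that of Ccer2, against 1371 and 1092 of 14043 at P1. Neurod6 has no row in the E14 and P7 tables, so that its value counted as 0 there. These numbers are under the 5 cells per library needed for a profile, and no comparison between ages was made.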

How the data were processed

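Single-cell RNA libraries (10x Chromium) of mouse cochlear duct were analysed, with the 4 P1 libraries as replicates and the 7 libraries of other ages used for the gate count only. The authors aligned reads and counted UMIs with Cell Ranger 2.1.1 on mm10, filtered cells and normalized them with Seurat 2.0, and deposited natural log values, ln(1 + 10000 × share of the cell's UMIs), per cell and gene. Of these values 100.0% gave whole UMIs within 2%, and the P1 libraries held 11829392 to 23523802 UMIs. At P1, 1134 cells held more than 3000 genes and 65 more than 15000 UMIs, the upper numbers of the study's filter on cells, which can be read as joint or as separate limits.

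From these values, cells were gated, and mean CPM per class and library was fitted as log2(CPM + 10) with limma 3.58.1 (R 4.3.3), with trend and the library as a block, since both classes came from the same collections; this is where the pairing comes from. Genes needed a mean of at least 10 CPM (8766 to 9127 tested of 23137), the 7 gate genes were left out, and p-values were Benjamini-Hochberg adjusted at 0.05. Wherever ± is not labelled, it is the SE of a log2 fold change from the 4 library pairs, or the SD of a level in CPM. Each SE of a log2 fold change, labelled or not, is limma's moderated one. It is drawn towards genes of similar level and is not the observed spread of that gene between libraries. The p-values rest on the same SE. In each comparison the variance shared over genes outweighed the gene's own, which had 3 degrees of freedom. Its weight was largest against Neurod6-positive OHCs, at 50.5 degrees of freedom. A small adjusted p-value can therefore go with uneven libraries, as for Ocm in that comparison. Scrublet ran in scanpy 1.11.5 (expected rate 0.06). Exact binomial intervals (95%) and floors (3 UMIs) cover counting error only. Promoters were located with GENCODE M21.

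The members and lists were chosen with earlier results of these data known. Named genes are, per comparison, the 12 called genes with the largest rise and the 12 with the largest fall in all libraries, up to 8 per list with a known role, and the 3 markers; others are said to be named after their values were seen. Some genes that this rule names are not reported here. Kcnn2, Pou4f3, Casz1, Nefm and (against Fgf8-positive HCs) Cpe were added to complete short lists after their values were seen. Alternatives were other pseudocounts, filters, scalings, gates, depths and left-out cells or libraries; leaving out cells with Shtn1, Atp2a3 or Cabp2 was chosen after seeing the data.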

Additional observations from a re-analysis of the deposited data

Results flagged for a closer look

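In 16 of 132 values examined over the 4 P1 libraries of later OHCs, 1 library lay far from the other 3 (Dixon's test at 95%), where chance gives about 5%. For Cabp2, Shtn1, Ikzf2 and Slc17a8 the other libraries were at 0, so that any value meets this test, and they rest on 1, 3, 5 and 2 UMIs. Replicate 1 held 50.5% of cells with 2 or more of 6 IHC markers (others 23.3% to 24.1%), a Kölliker's organ marker sum of 1445 CPM (others 284 to 434), Cnmd at 125 CPM (others 19.5 to 31.1), Epyc at 224 CPM (others 30.1 to 59.0) and Itm2a at 58.0 CPM (others 3.22 to 9.10). In the same library Chrna9 was at 274 CPM (others 189 to 203), Tmem229a at 44.1 CPM (others 80.2 to 87.0), Ikzf2 at 5.90 CPM, Shtn1 at 2.43 CPM and Cabp2 at 1.19 CPM, the last 3 at 0 elsewhere. The share of cells with IHC markers was counted at full depth, with a median of 9662 UMIs in replicate 1 (others 5022 to 7935). It rests mostly on Otof and Kcnj13, since 4 later OHCs held Shtn1, Atp2a3 or Cabp2 and 2 held Slc17a8. The part of depth in this share was not tested.

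Replicate 4 held Cdkn1a at 81.2 CPM (others 11.5 to 13.4), Lhfpl5 at 812 CPM (others 1512 to 1654), Pvalb at 1098 CPM (others 1919 to 2050.4) and Slc17a8 at 3.19 CPM (others 0). Replicate 2 held Map2 at 82.7 CPM (others 62.8 to 65.6) and P2rx3 at 5.29 CPM (others 14.7 to 16.4).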

How the results depend on the processing

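Against non-hair cells, calls numbered 2736 higher and 4108 lower without the filter on low values, which tests more genes. Against Neurod6-positive OHCs they numbered 309 and 359 without the filter, 180 and 236 without cells of more than 3000 genes, 308 and 491 with the stricter gate and 343 and 453 without cells holding 2 IHC markers, where Kcnj13 reversed to -1.23. Against Fgf8-positive HCs they numbered 315 and 284 without the filter, 169 and 141 without cells of more than 3000 genes, and 322 and 345 with the stricter gate. These settings held fewer cells or more genes, and the cause of the changed counts was not tested. With no replicate block, that is, without the pairing of classes by library, 33 and 55 genes were called against Neurod6-positive OHCs and 139 and 140 against Fgf8-positive HCs, in place of 541 and 639 and of 512 and 469. Leaving out a library gave 2611 to 2697 higher and 2126 to 2256 lower against non-hair cells, 355 to 444 and 414 to 552 against Neurod6-positive OHCs, and 363 to 428 and 324 to 393 against Fgf8-positive HCs; the fewest higher calls against Neurod6-positive OHCs came without replicate 4 (355) or 2 (360). At the depth as deposited, 61.1%, 68.7% and 42.7% of later OHCs held Strip2, Calca and Veph1. The stricter gate left 131 later OHCs and the looser gate, with any Calb2 above 0, 394. Of named genes, 50 of 51, 29 of 69 and 40 of 51 kept their call and direction under all of the 17 alternatives that tested them, against non-hair cells, Neurod6-positive OHCs and Fgf8-positive HCs.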
